A study of Mus musculus with 104 samples.

Results

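Junctions from a fixed DNA break were compared between 3 bait sites, on mouse chromosomes 7, 12 and 15, in embryonic stem cells (ESC) that received only DMSO, the solvent of the drug arm of the study. Every ESC experiment labelled DMSO was taken, from both lines, which gave 28 of the 104 experiments of the series: 12 with the bait on chromosome 7, 8 on chromosome 12 and 8 on chromosome 15. All of these cells carried the genotype Xrcc4-/- p53-/- on a C57BL/6/129SVE background and grew in DMEM with 15% FBS. There is therefore no cell with Xrcc4 among these groups. The labels give no cell sex, no number of clones per line and no name for the nuclease. Nor do they say whether lettered experiments came from separate cultures. Each p-value therefore covers only the spread from one lettered experiment to another, which may be technical.

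The assay, high-throughput genome-wide translocation sequencing (HTGTS), breaks a chosen bait site and reads outward from it through the point where the broken bait end has been joined to other DNA, the prey. Each junction thus records a second broken end somewhere in the genome. Xrcc4 is a partner of DNA ligase 4 in classical end joining, and cells without it join ends by alternative pathways that often trim the ends and pair a few shared bases (microhomology). Loss of p53 lets cells with unrepaired breaks survive. Most joins of an HTGTS bait fall close to its own break, because trimmed sister ends and nearby breaks are the nearest partners, and joins to other chromosomes are translocations.

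The 3 baits start from different letters, which the junctions below keep or lose. Each sequence is the bait strand as it was read (build mm9, from the deposited reads), 40 bases up to the break and 20 past it; the capitals mark the last 10 bases before the break.
Bait 7, chr7:80451934-80451993, minus strand: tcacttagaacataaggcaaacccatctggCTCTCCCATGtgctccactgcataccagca
Bait 12, chr12:13000821-13000880, plus strand: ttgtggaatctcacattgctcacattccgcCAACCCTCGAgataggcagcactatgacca
Bait 15, chr15:86848169-86848228, plus strand: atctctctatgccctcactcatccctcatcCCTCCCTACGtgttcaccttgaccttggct
Bait 7 is read toward lower coordinates and baits 12 and 15 toward higher ones. No mm9 annotation was used here, so the genes at these sites are not named.

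The 6 pools, 1 for each line and bait, held 337700 junctions after each read name was counted once, between 32896 (bait 15, line 2) and 113936 (bait 12, line 2). On the 17 chromosomes that carry none of the baits they held 32048, between 3343 (bait 7, line 1) and 10091 (bait 12, line 2). Distinct combinations of prey position, strand and bait end made up 45.9 to 69.1% of a pool's junctions. The deposited junctions carried 26 experiment letters: 7 for bait 7 in line 1 and 3 for bait 7 in line 2, fewer than the 8 and 4 labelled, and 4 in every other pool. Bait and sequencing run mostly cannot be told apart: of the 14 runs, only run 11 (bait 7 experiments B and D and bait 12 experiment D, all of line 2) and run 12 (bait 7 line 2 experiment A and bait 15 line 1 experiment C) held 2 baits, and their values are given beside the results.

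Bait 15 was joined to other chromosomes most often and bait 7 least often. With bait 7, 93.4% ± 2.73 (SD, n = 7 experiments, line 1) and 91.4% ± 0.70 (n = 3, line 2) of all junctions fell on the bait's own chromosome. Bait 12 kept 89.7% ± 3.91 and 90.1% ± 0.47 there (n = 4 in each line), and bait 15 kept 84.5% ± 1.52 and 84.1% ± 3.36 (n = 4 each). The 4 bait 15 experiments of line 1 lay at 86.2, 83.1, 83.3 and 85.4% and those of line 2 at 79.4, 84.4, 85.5 and 87.2%, while bait 7 in line 1 ran from 89.2% over a median of 94.4% to 96.5%. No bait 15 experiment reached the lowest bait 7 experiment of its line. Bait 12 overlapped bait 7 in both lines; its line 1 experiments lay at 84.1, 90.6, 93.0 and 91.2%.

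Differences between 2 baits were tested by exchanging the lettered experiments within each line and listing every exchange (exact two-sided permutation test, Benjamini-Hochberg adjusted); a difference was called when the adjusted p was under 0.05 and the sign was the same in both lines. Of the 27 tests on distance and chromosome, 19 passed (70.4%), so a call in this family is common and its size carries more than the call itself. The calls include every contrast with bait 7 on the telomere side and on the plus strand to each side of the break. Bait 7 is read in the opposite direction to the other baits, so these contrasts mix site and read direction. The share on the bait chromosome differed by -8.11 percentage points between bait 15 and bait 7 (adjusted p = 0.000292, exact permutation, from an unadjusted p of 8.66e-05, the smallest the design allows for a pair with bait 7) and by -5.61 points between bait 15 and bait 12 (adjusted p = 0.00236, exact permutation). Bait 12 differed from bait 7 by -2.50 points (adjusted p = 0.0284, exact permutation). That call was lost without line 1 experiment C or G of bait 7 (-2.42 and -2.41 points, adjusted p = 0.0508 and 0.0516, exact permutation) and without line 1 experiment A of bait 12 (-1.55 points, adjusted p = 0.117, exact permutation). Within run 12, the bait 7 experiment had 90.6% and the bait 15 experiment 83.3%; within run 11, bait 7 had 91.6 and 92.0% and bait 12 had 89.7%.

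**Figure D1:**
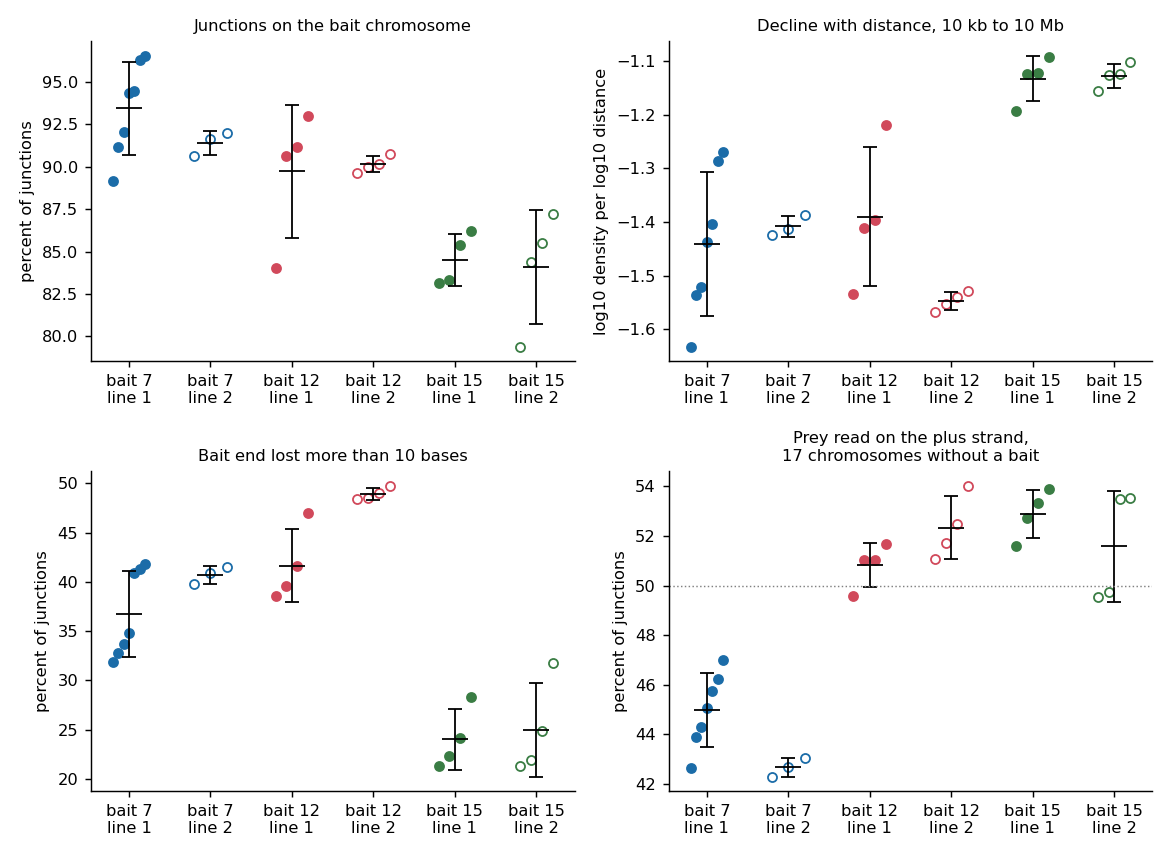
Values by experiment (points, filled for line 1 and open for line 2) with the mean and SD of each group in black, for baits 7, 12 and 15: the percent of junctions on the bait chromosome, the slope of log10 junction density on log10 distance, the percent of junctions whose bait end lost more than 10 bases, and the percent of prey on the plus strand. Bait 15 has the flattest slopes, near -1.13, and the fewest long losses. In the strand panel every bait 7 experiment, between 42.3 and 47.0%, lies below every experiment of the other baits.

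Once the 5 Mb on each side of the break were left out, bait 7 stood apart instead. Of the junctions that remained, 20.2% ± 3.12 (n = 7) and 21.8% ± 3.24 (n = 3) fell on chromosome 7, against 13.2% ± 4.18 and 13.2% ± 0.98 on chromosome 12 and 12.2% ± 1.69 and 11.7% ± 1.14 on chromosome 15 (n = 4 each). The differences to bait 7 were -7.83 points for bait 12 and -9.02 points for bait 15 (adjusted p = 0.000779 and 0.000292, exact permutation). Baits 15 and 12 differed by -1.19 points, which did not pass (adjusted p = 0.349, exact permutation). The 3 chromosomes differ in length, so density is the fairer scale. Beyond 5 Mb, the bait chromosome held 4.45 ± 0.86 and 4.91 ± 0.93 times the junctions per Mb of the bait-free chromosomes with bait 7, 3.45 ± 1.23 and 3.43 ± 0.28 times with bait 12, and 3.86 ± 0.62 and 3.65 ± 0.44 times with bait 15. Every experiment of every bait lay above 1, the lowest being 1.98 in experiment A of bait 12, line 1. This ratio was among 57 tests added after the values were seen, of which 24 passed (42.1%). Bait 12 differed from bait 7 by -1.24 (adjusted p = 0.0222, exact permutation), a call lost without line 1 experiment A of bait 12 (-0.996, adjusted p = 0.0624, exact permutation). Bait 15 differed from bait 7 by -0.92, which did not pass (adjusted p = 0.0630, exact permutation), but did without any 1 of 4 experiments (B or D of bait 7 in line 1, A of bait 7 in line 2, A of bait 15 in line 1; -1.19 to -0.99). Junction density on the bait's own chromosome was thus raised even far from the break, at all 3 sites.

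**Figure D2:**
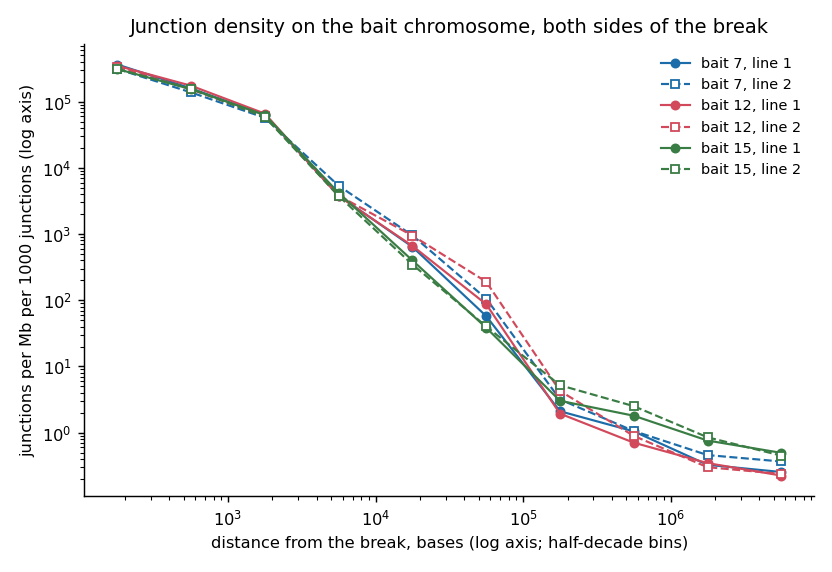
Junctions per Mb per 1000 junctions on the bait chromosome (log axis) against distance from the break (log axis, half-decade bins from 100 bases to 10 Mb, both sides together), 1 line for each pool. The 6 lines lie close up to 10 kb and part between 10 and 100 kb, where bait 15 is lowest; in the last 3 distance bins bait 15 is highest, with 0.495 and 0.449 in the last one against 0.225 to 0.366 for the others.

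The decline with distance had the same outline at every bait and differed in its middle. Within 10 kb lay 90.3 to 94.0% of the bait-chromosome junctions (means of the 6 groups), with no called difference between baits. Without line 1 experiment C of bait 12 or line 2 experiment A of bait 15, the difference of bait 15 to bait 12 passed (2.25 and 2.33 points, adjusted p = 0.0362 and 0.0474, exact permutation). From 10 kb to 10 Mb, log10 density fell with log10 distance with a slope of -1.44 ± 0.13 and -1.41 ± 0.02 for bait 7 and of -1.39 ± 0.13 and -1.55 ± 0.02 for bait 12. For bait 15 it was -1.13 ± 0.04 and -1.13 ± 0.02, with all 8 experiments between -1.19 and -1.09 and no overlap with either other bait in either line. Bait 15 was flatter than bait 7 by 0.30 and than bait 12 by 0.34 (adjusted p = 0.000292 and 0.000918, exact permutation). When the fit started at 100 kb instead, neither difference passed (0.10 and 0.15, adjusted p = 0.337 and 0.0756, exact permutation).

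The stretch from 10 to 100 kb on the read side is 1 place where the lines part. Bait 12 placed 2.63 and 4.74% of all its junctions there (1036 and 5399), bait 7 placed 1.99 and 3.42%, and bait 15 placed 1.35 and 1.07% (610 and 352 junctions). From 100 kb to 1 Mb on the same side every pool was between 0.0863 and 0.153%. Behind the break over that range, bait 15 placed 0.237 and 0.453%, against 0.0939 to 0.179% in the pools of the other baits (not tested). At 10 kb to 5 Mb as a whole, bait 15 held 3.76% ± 0.18 and 3.61% ± 1.04 of its chromosome's junctions, with differences of -1.54 points to bait 7 and -2.80 points to bait 12 (adjusted p = 0.0216 and 0.0147, exact permutation). Without line 1 experiment A of bait 12 the latter was -2.21 points and no longer had the same sign in both lines. Beyond 5 Mb it held 2.55% ± 0.42 and 2.55% ± 0.84, above bait 12 at 1.59% ± 0.10 and 1.65% ± 0.09 by 0.93 points (adjusted p = 0.000918, exact permutation, no overlap in either line).

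Junctions followed the direction of the bait read. The tests on side and orientation in this and the next paragraph, apart from the telomere side, are among those added after the values were seen. Within 10 kb, between 82.7 and 88.9% of junctions (group means) lay ahead of the break, the side into which the bait read points, and bait 15 differed from bait 7 by -5.54 points (adjusted p = 0.000617, exact permutation). At 10 kb to 10 Mb the share ahead was 54.2 and 59.0% for bait 7, 62.1 and 68.3% for bait 12, and 54.0 and 49.4% for bait 15. Bait 12 thus leaned ahead most, with 8.60 points more than bait 7, and bait 15 differed from it by -13.6 points (adjusted p = 0.00166 for each, exact permutation). Counted by the chromosome rather than by the read, the telomere side held 45.8% ± 5.36 and 41.0% ± 1.37 with bait 7, 62.1% ± 1.88 and 68.3% ± 0.50 with bait 12, and 54.0% ± 4.12 and 49.4% ± 8.59 with bait 15. Since bait 7 is read away from the telomere and the other baits toward it, this contrast mixes site and read direction.

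Close to the break the prey end also kept the direction of the bait. In junctions ahead of the break at 10 kb to 10 Mb, the prey was read in the same direction as the bait in 87.5% ± 3.10 and 86.0% ± 2.53 with bait 7, 81.1% ± 4.15 and 84.9% ± 0.56 with bait 12, and 75.0% ± 3.06 and 72.0% ± 2.30 with bait 15. In the geometry of the assay, a join that deletes the stretch between break and prey has this orientation. Bait 15 differed from bait 7 by -13.3 points and from bait 12 by -9.50 points (adjusted p = 0.000617 and 0.00436, exact permutation). At 10 to 100 kb ahead alone, the shares were 91.4 and 91.9% with bait 7, 86.6 and 87.1% with bait 12 and 87.0 and 82.1% with bait 15, so that baits 12 and 15 lay closer there than over the whole range, in which bait 15 had fewer junctions at 10 to 100 kb. From 100 kb to 1 Mb they were 63.2 and 70.4% with bait 7, 55.9 and 62.6% with bait 12 and 42.9 and 47.4% with bait 15, and at 1 to 5 Mb 42.1 to 61.7% over the 6 pools. Behind the break at 1 to 10 kb the prey had the opposite orientation in most junctions, with 10.1 to 27.2% in bait orientation. In the last 100 bases behind the break the baits parted: 77.2 and 75.9% were in bait orientation with bait 7 and 87.0 and 89.6% with bait 15, but 30.1 and 38.2% with bait 12 (434 to 1470 junctions a pool, not tested). Beyond 5 Mb the groups averaged 46.8 to 51.3% in bait orientation, with no called difference between baits.

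The bait ends themselves also differed. A bait end kept whole, with the junction exactly at the break, was found in 8.53% ± 1.74 and 6.86% ± 0.11 of bait 7 junctions, in 2.72% ± 0.71 and 2.18% ± 0.09 of bait 12 junctions and in 3.39% ± 0.26 and 3.43% ± 0.47 of bait 15 junctions. The lowest bait 7 experiment of line 1, at 5.97%, lay above every experiment of the other baits, the highest of which was 3.77%. Of the 36 tests on bait ends and junction structure 17 passed (47.2%), and here bait 12 differed from bait 7 by -5.25 points and bait 15 by -4.29 points (adjusted p = 0.000519 for each, exact permutation). Bait 15 lay 0.96 points above bait 12 (adjusted p = 0.00534, exact permutation). Within run 11, bait 7 had 6.99 and 6.81% and bait 12 had 2.07%. Within run 12, bait 7 had 6.79% and bait 15 had 3.39%. Bait ends read past the break are counted apart from whole ends. They made up 3.06 and 2.97% of bait 7 junctions, 4.68 and 3.54% with bait 12 and 9.53 and 9.38% with bait 15 (pools, not tested). Whole ends alone thus do not rank the baits by how often no bait base was lost.

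Long losses ordered the baits differently from whole ends. More than 10 bases were missing from the bait end in 41.7% ± 3.74 and 48.9% ± 0.61 of bait 12 junctions, in 36.7% ± 4.38 and 40.7% ± 0.90 of bait 7 junctions and in 24.0% ± 3.11 and 25.0% ± 4.77 of bait 15 junctions. The bait 15 experiments were at 22.3, 28.3, 24.2 and 21.3% in line 1 and at 31.8, 24.9, 22.0 and 21.4% in line 2, all below the lowest bait 7 value of their line (31.9 and 39.7%). Bait 15 differed from bait 7 by -14.2 points and from bait 12 by -20.8 points, and bait 12 from bait 7 by 6.56 points (adjusted p = 0.000519, 0.00210 and 0.00623, exact permutation). The median loss over an experiment was 4 or 5 bases with bait 15, 6 to 9 with bait 7 and 7 to 10 with bait 12. Within run 12, the long losses were 41.5% with bait 7 and 24.2% with bait 15, and within run 11, 40.9 and 39.7% with bait 7 and 49.7% with bait 12. On bait-free chromosomes alone, in tests added later, bait 15 was again lower, with differences of -16.5 points to bait 7 and -18.1 points to bait 12 (adjusted p = 0.000617 and 0.00166, exact permutation), while baits 12 and 7 did not differ by the test (1.64 points, adjusted p = 0.389, exact permutation).

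**Figure D3:**
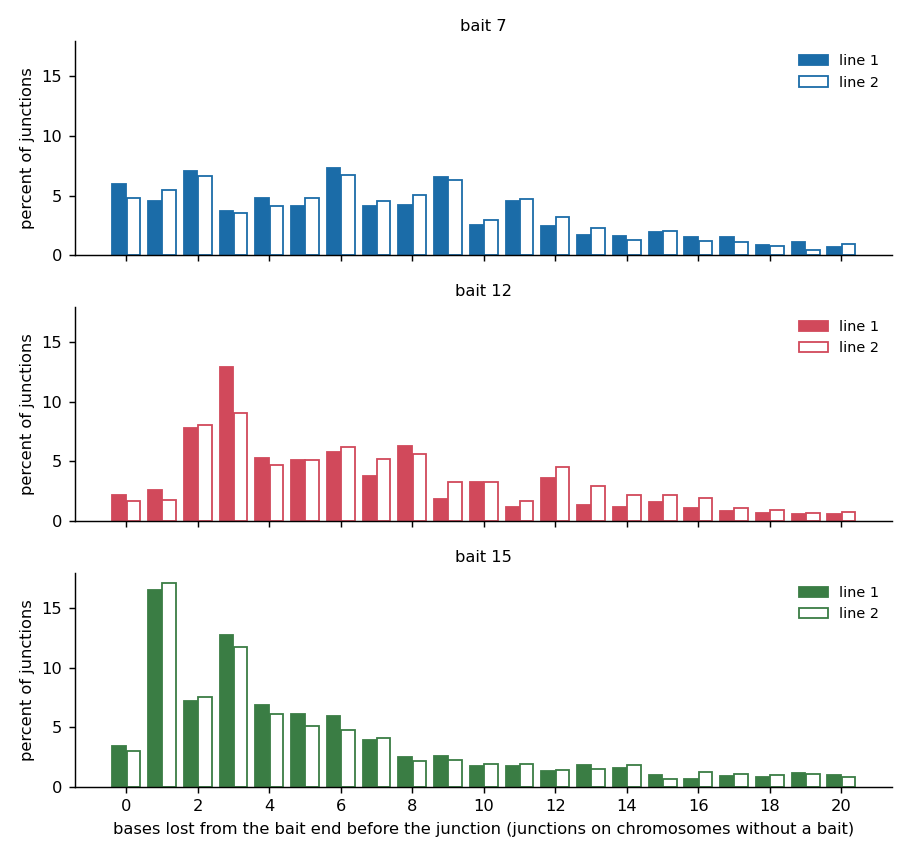
Percent of junctions on bait-free chromosomes (vertical axis) by the number of bases lost from the bait end (0 to 20), a panel for each bait, filled bars for line 1 and open bars for line 2. Bait 15 peaks at 1 and 3 lost bases and bait 12 at 3, in both lines, whereas bait 7 is spread, with no position above 7.36%.

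Within a few bases of the break, junctions of baits 12 and 15 gathered at certain positions, which both lines shared. With bait 15, 16.5 and 17.1% of bait-free junctions had lost exactly 1 base, so that the kept end reads ctac, and 12.7 and 11.7% had lost 3, so that it ends in cct. With bait 12, 12.9 and 9.06% had lost 3 bases, with cct as the kept end, and 7.82 and 8.02% had lost 2. Bait 7 had no such peak: the most used position, at 6 lost bases, took 7.36 and 6.77%. The letters shared at the junction were those of the bait end. Among bait 15 junctions with 4 shared bases, CTAC was the most common word in both lines (16.5 and 18.0%), and every one of these 89 and 74 junctions had lost 1 bait base. Among those with 2 shared bases it was AC (25.5 and 26.5%). With bait 12 the leading 4-base word was CCTC, in 11.7 and 8.59%, at 2 lost bases throughout, and with bait 7 it was CCAT in line 1 (8.36%) and CCCA in line 2 (10.5%). A shared word must come from the bait end by construction, so these shares describe which stretch of each end paired with the prey and not a preference of the prey. In the sequences printed above, CTAC of bait 15 and CCTC of bait 12 each occur at only 1 place. The number of bases lost at these words was therefore fixed in advance.

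Junction structure on the bait-free chromosomes had a similar profile for each bait, and 2 was the most common number of shared bases in all 6 pools (13.6 to 19.4% of junctions). At least 1 base was shared in 57.8 to 72.3% of junctions (group means). Blunt junctions, with neither shared nor inserted bases, were more frequent with bait 7, at 8.64% ± 1.82 and 9.17% ± 0.16, than with bait 12, at 6.80% ± 0.43 and 5.65% ± 0.39, or bait 15, at 6.10% ± 0.56 and 5.59% ± 0.19. The differences to bait 7 were -2.68 and -3.06 points (adjusted p = 0.00534 and 0.00242, exact permutation), with overlap in line 1, where the bait 7 experiments ran from 5.97% over a median of 8.88% to 11.03%. Within run 11 bait 7 had 9.04 and 9.35% and bait 12 had 5.80%, and within run 12 bait 7 had 9.14% and bait 15 had 5.32%. On the bait chromosome beyond 10 kb the blunt share did not differ between baits by the test: the group means were 5.87 to 6.77%.

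Longer microhomology on the bait chromosome also set bait 7 apart. Of its junctions beyond 10 kb of the break, 27.5% ± 3.07 and 27.2% ± 0.92 shared 4 or more bases, against 20.6% ± 0.78 and 22.4% ± 0.59 with bait 12 and 20.7% ± 0.57 and 20.2% ± 1.55 with bait 15. No experiment of baits 12 or 15 reached the lowest bait 7 experiment of its line (22.2 and 26.2%). The differences were -5.80 and -6.83 points (adjusted p = 0.000519 for each, exact permutation), and baits 15 and 12 differed by -1.03 points (adjusted p = 0.170, exact permutation). The mean shared length there was 3.07 and 3.06 bases with bait 7 and 2.73 to 2.85 with the others.

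On the bait-free chromosomes, the share of junctions with inserted bases varied widely between experiments of 1 bait, and no difference between baits was called there. On bait-free chromosomes they were found in 24.3% ± 2.64 and 31.7% ± 9.57 of bait 7 junctions, 35.4% ± 7.29 and 22.0% ± 0.93 of bait 12 junctions, and 27.4% ± 8.77 and 26.2% ± 3.22 of bait 15 junctions. All 3 of these differences changed sign between the lines. On the bait chromosome beyond 10 kb, inserted bases were more frequent with bait 15 than with bait 7 by 3.35 points. That call was just past the threshold (adjusted p = 0.0495, exact permutation), with overlap in both lines. Long insertions were frequent in junctions to prey of simple sequence, defined as 20 or more of the first 30 prey bases being 1 base or a repeat with a unit of 1 to 6 bases at 90% or more of their places. Such prey made up 10.5% of bait-free junctions (3365 of 32048), and 44.1% of them carried 10 or more inserted bases, against 5.73% of the rest. The 2 experiments of run 12 stood out: prey with 20 or more G in 30 bases were 29.0% of bait-free junctions in bait 7 line 2 experiment A and 17.4% in bait 15 line 1 experiment C, and at most 7.37% in any other experiment. Their shares with 10 or more inserted bases were 26.8 and 18.0%, and 3.82 and 6.05% once simple-sequence prey were left out. Experiment A of bait 12 in line 1 had 28.0% simple-sequence prey, of which few were rich in G (1.63% of junctions), and 24.4% long insertions, or 13.0% without them. With simple-sequence prey left out, inserted bases were more frequent with bait 12 than with bait 7 by 3.93 points (adjusted p = 0.0315, exact permutation), and 4 or more shared bases less frequent, with -3.65 points (adjusted p = 0.00425, exact permutation). The part of run 12 in these shares was not tested.

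**Figure D4:**
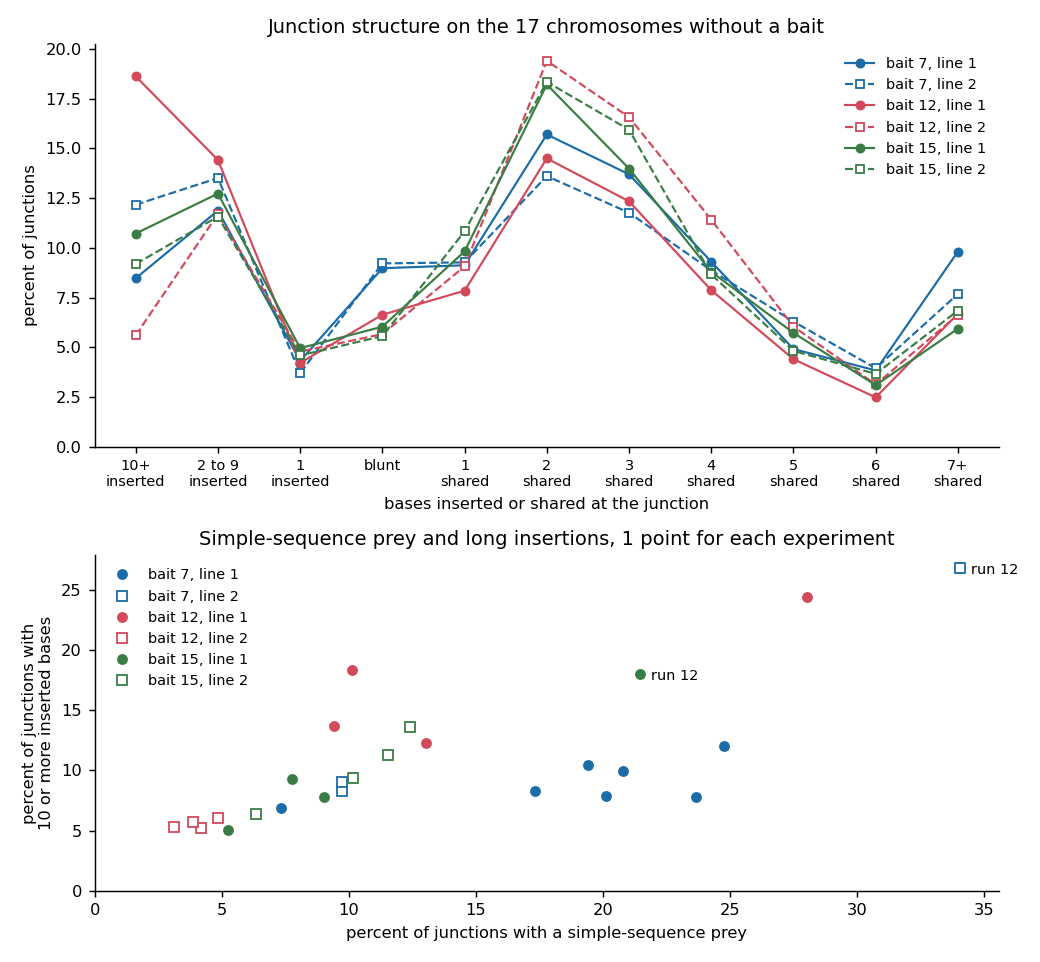
Upper panel: percent of bait-free junctions by the number of bases inserted or shared at the junction, 1 line for each pool. Lower panel: for each experiment, the percent of bait-free junctions with 10 or more inserted bases against the percent with a simple-sequence prey. Among shared lengths every pool is highest at 2 bases, bait 12 in line 1 is higher still at 10 or more inserted bases (18.6%), most bait 7 experiments of line 1 combine many simple-sequence prey with 7.75 to 12.01% long insertions, and the 2 experiments of run 12 lie at 34.0 and 21.4% simple-sequence prey.

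Prey on the bait-free chromosomes differed in strand between baits. These chromosomes hold none of the breaks, so no distance to a bait is involved. Prey were read on the plus strand in 45.0% ± 1.49 and 42.7% ± 0.38 of bait 7 junctions, 50.8% ± 0.90 and 52.3% ± 1.27 of bait 12 junctions, and 52.9% ± 0.98 and 51.6% ± 2.24 of bait 15 junctions. The 3 line 2 experiments of bait 7 had 43.0, 42.3 and 42.7%, and the 7 of line 1 ran from 42.6% over a median of 45.1% to 47.0%. The 8 experiments of bait 12 ran from 49.6 to 54.0% and those of bait 15 from 49.5 to 53.9%, so neither overlapped bait 7. This measure, too, was among the tests added later. Bait 12 lay 7.76 and bait 15 8.41 points above bait 7 (adjusted p = 0.000617 for each, exact permutation), and baits 12 and 15 differed by 0.65 points (adjusted p = 0.504, exact permutation). Without simple-sequence prey the bait 7 pools had 42.9 and 42.1% and the others 51.4 to 53.1%.

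The strand difference spread over the genome. With both lines together, bait 7 was below 50% on all 17 chromosomes, from 38.2% on chromosome 19 to 48.8% on X, whereas baits 12 and 15 were each above 50% on 13 of 17. It held in junctions with inserted bases (43.4 to 46.4% with bait 7, 51.5 to 53.7% with the others), blunt ones (41.7 to 46.3 against 48.0 to 56.7%) and those with 4 or more shared bases (39.8 to 44.6 against 49.8 to 52.5%). It did not hold among prey whose first 30 bases occur in 5 or more windows, where bait 7 had 49.0 and 50.2% and the others 41.4 to 55.1%. Within run 11, bait 7 had 42.3 and 42.7% and bait 12 had 52.5%; within run 12, bait 7 had 43.0% and bait 15 had 52.7%. Bait 7 is the only bait read on the minus strand. Taken relative to the bait read, prey had the strand of the bait in 55.0 and 57.3% with bait 7, 50.8 and 52.3% with bait 12, and 52.9 and 51.6% with bait 15, and on this scale the differences to bait 7 were smaller and of the other sign (-4.60 and -3.94 points, adjusted p = 0.000617 and 0.00296, exact permutation).

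**Figure D5:**
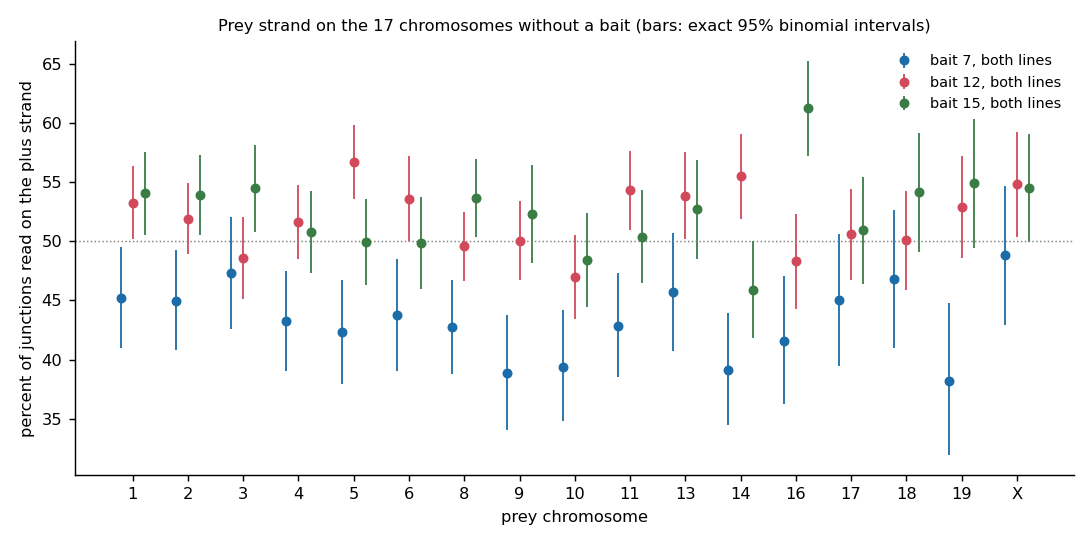
Percent of junctions whose prey is read on the plus strand (vertical axis) on each of the 17 chromosomes without a bait (horizontal axis), both lines together, with exact 95% binomial intervals that cover counting error only, for baits 7, 12 and 15. Every bait 7 point lies below 50%; the highest point is bait 15 on chromosome 16, at 61.3%, where 105 junctions of 1 window lie on the plus strand.

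Apart from strand, no difference between baits was called in how prey were shared among the bait-free chromosomes. These counts do not show that the landscapes are alike. None of the 51 tests on chromosome shares passed (0%; 9 at an unadjusted p under 0.05, smallest adjusted p = 0.227, exact permutation), and the largest difference between 2 baits was 1.29 points. Relative to its length, chromosome 8 held more than its part in every pool, at 1.23 to 1.54 times the mean of the bait-free chromosomes. Chromosome 11 held 1.09 to 1.29 times and chromosome 1 held 0.834 to 0.869 times the mean. Chromosome X lay lowest in all pools, at 0.488 to 0.682 times, and the labels do not give the number of X chromosomes. Over 462 bins of 5 Mb, Spearman correlations were 0.507 to 0.601 between lines of 1 bait and 0.436 to 0.517 between baits of 1 line. Between pools that differ in both bait and line they were 0.425 to 0.572. Over 2214 bins of 1 Mb the correlations were lower, at 0.221 to 0.287, 0.154 to 0.246 and 0.161 to 0.254 in the same order. These ranges overlap, and the pools share the mappable genome and differ in depth.

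At 1 Mb, 207 bins held enough junctions for a test (edgeR quasi-likelihood on the 6 pools, line as a term). A bin could be kept through the pools of 1 bait alone, where it was high, and the p-values do not allow for this. No bin was called between baits 12 and 7 or between 15 and 7 (0% each; 14 and 19 at an unadjusted p under 0.05), and 1 was called between 15 and 12 (0.483%; 17 at an unadjusted p under 0.05). On counts simulated with the spread of these pools, the test found 1 of 40 bins raised 4-fold and 10 of 46 raised 8-fold for bait 12 against 7, so few changes of these sizes were detectable. The called bin was chr16:31000000-31999999, with 54 and 61 junctions for bait 15, 3 and 6 for bait 12 and 3 and 7 for bait 7 (log2 difference 3.86 between baits 15 and 12, adjusted p = 0.0271, edgeR). Without the line 1 pool of bait 15 it was no longer called (0 bins), and without the line 1 pool of bait 7 the fit called 4 bins for bait 12 against 7 and 2 for bait 15 against 7. Nearly all of its bait 15 junctions lay in 1 window of 1 kb. For bait 12 against 7, the smallest p went to chr17:39000000-39999999 (20 and 79 against 7 and 8 junctions, log2 2.03, adjusted p = 0.113, edgeR) and chr3:46000000-46999999 (0 and 2 against 12 and 21, log2 -4.68, adjusted p = 0.113, edgeR).

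The narrow windows behind these bins can be read letter by letter. In 24 windows of 1 kb at least 1 pool had 10 or more junctions. These windows held 1.91 and 1.99% of bait-free junctions with bait 7, 0.658 and 1.12% with bait 12, and 3.42 and 3.06% with bait 15. They were chosen for their counts in these same pools, and deeper pools reach 10 more easily, so the shares are a description. Each sequence below gives the 30 prey bases most often read at the most used position of a window, from the junction on (54 of 70 reads there on chromosome 16, 20 of 21 on chromosome 10, and all 20 and 6 on chromosomes 3 and 17), with the longest run shared with the 60 bases printed for its bait in capitals.
Bait 15, chr16:31902131-31902160, plus strand: ccttgACCTTGACCTTGaccttgaccttga
Bait 15, chr10:59908582-59908611, minus strand: aaaaaaaaaaGGgggggggggggggggggg
Bait 7, chr3:46254521-46254550, plus strand: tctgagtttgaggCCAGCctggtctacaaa
Bait 12, chr17:39983275-39983304, minus strand: ccaggtaaGGAAgcgcgagcgaagccgtcg
The chromosome 16 window held 50 and 55 bait 15 junctions and none of the other baits. All 105 were on the plus strand within 8 bases, 70 at the position shown, and 100 were of simple sequence. Its repeat unit stands in the bait 15 sequence just past the break, and the shared run is 12 bases long, against 2 to 5 bases at the other 8 windows looked at in this way. The chromosome 10 window, with 19 and 20 bait 15 junctions and 3 of each other bait, was a run of A followed by G on 1 strand, after a median of 22 inserted bases.

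The windows on chromosomes 3 and 17 held no simple-sequence prey. That on chromosome 3 held 12 and 21 bait 7 junctions and none of the other baits, with 32 of 33 on the plus strand and all within 71 bases. Bait 12 gathered on chromosome 17: chr17:39980000-39985999, a run of 5 neighbouring windows, held 20 of its 3800 bait-free junctions in line 1 and 75 of 10091 in line 2 (0.743%, 95% Clopper-Pearson interval 0.585 to 0.931%). Bait 15 had 0.212 and 0.317% there and bait 7 had 0.209 and 0.0758%, so this stretch was used by all baits, on both strands. How many copies of it the genome holds was not analysed here, and reads from any further copies would be placed on it as well, also in the counts of its 1 Mb bin. Windows with 3 or more junctions on each strand spanned 152 to 830 bases and numbered 9, of which 6 were led by bait 12. Among these 6 are the 5 neighbouring windows of the chromosome 17 stretch, so they are mostly 1 place in the genome. The 15 windows on essentially 1 strand spanned 3 to 144 bases, and 11 of them were led by bait 15. Simple-sequence prey made up most of the junctions in 11 of the 15 windows on 1 strand and in 2 of the 9 on both. In 7 of the 11 windows led by bait 15 most prey were rich in G. Of the 199 junctions in these 7 windows, the 2 experiments of run 12 held 69 (bait 15 line 1 C) and 35 (bait 7 line 2 A), and every other experiment held 16 or fewer. The part of that run in these windows was not tested.

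Leaving out simple-sequence prey changed which bins were called. The chromosome 16 bin, called above for bait 15 against 12 only, was then no longer among the called bins. The chromosome 17 bin was called for bait 12 against 7 (log2 1.85, adjusted p = 8.32e-06, edgeR) and, with the opposite sign, for bait 15 against 12 (-1.19, adjusted p = 0.00331, edgeR). The chromosome 3 bin was called for bait 12 against 7 (-4.88, adjusted p = 3.24e-07, edgeR) and for bait 15 against 7 (-2.74, adjusted p = 0.00224, edgeR). The bin chr4:82000000-82999999, with 19 and 16 bait 15 junctions, 0 and 4 of bait 12 and 1 and 0 of bait 7, was called for bait 15 against both (4.56 and 3.56, adjusted p = 0.00108 and 0.00175, edgeR). So was chr11:55000000-55999999 for bait 15 against 7 (12 and 14 against 0 and 2 junctions, log2 3.29, adjusted p = 0.0256, edgeR). These fits were added after the values were seen and tested 146 bins. The bins on chromosomes 3, 4 and 11 passed the filter through the bait with the high counts, which their p-values do not allow for.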

How the data were processed

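HTGTS junction tables hold 1 junction read a line, with the prey position and strand, the bait and prey alignment ends and the read. The authors aligned reads with Bowtie2 to mm9, per the submitters' processing notes; versions, junction caller and duplicate filter: not given in the sources used here. Junction counts are raw: the deposited tables carry no normalization by the authors, no filter flag was set in them, and each read name of the 6 ESC DMSO tables was counted once. Reads were grouped by the bait chromosome, line and experiment letter. The 8 labelled experiments of bait 7 in line 1 could not be matched to the 7 letters found, so letters are used as written. The reads carry no molecular identifiers, so copies made by PCR cannot be told from separate molecules and intervals cover counting error only.

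The break was placed from bait reads that run past it: their bait end was moved back by the number of bases deposited as read past the break. In each pool 100% of these reads gave the same position. Whole ends are those whose last bait base lies at that position. Shared bases are bait and prey alignment overlap, and inserted bases the gap between them. The slope used half-decade bins with 0.5 junctions added. Permutation tests exchanged experiments of 2 baits within a line (Python 3.11.15, numpy 2.4.6, pandas 2.3.3, scipy 1.17.1), with Benjamini-Hochberg adjustment within a family of measures. Bins of 1 Mb on the 17 bait-free chromosomes were tested with edgeR 4.0.16 in R 4.3.3 (TMM, filterByExpr with a minimum count of 5, bait and line as terms), after a check on simulated counts; DESeq2 1.42.0 was an alternative. Others left out each experiment, each line, repeated positions, narrow windows or prey classes, or moved zones and bin sizes. The bins named are those called or, where none was, up to 3 with the smallest p, and the windows named are among the 3 fullest for each bait. Members, measures and lists were chosen with earlier results of these data known. Break and prey letters come from the deposited reads.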

Additional observations from a re-analysis of the deposited data

Results flagged for a closer look

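In groups of 4 to 10 experiments, 9 values of a lone experiment stood far from the rest among 119 groups looked at. Chance marks about 1 in 20 such groups where they are independent. These were not: several flags fell on the same experiment, and for baits 12 and 15 the share ahead and the telomere side are 1 measure. Experiment B of bait 15 in line 1 had 47.8% of its junctions at 10 kb to 10 Mb ahead of the break, which for this bait is also the telomere side, against 55.5 to 56.7% in the other 3, and a median bait loss of 5 bases against 4. Experiment A of bait 15 in line 2 had 2.74% of bait ends kept whole, against 3.60 to 3.77%, a median loss of 5 bases against 4, and 91.1% of chromosome 15 junctions within 10 kb, against 94.5 to 94.9%. Experiment B of bait 15 in line 2 had 43.0% of junctions beyond 5 Mb in bait orientation, against 50.3 to 51.8%. Experiment A of bait 12 in line 2 had 5.08% blunt bait-free junctions, against 5.80 to 5.89%, and experiment G of bait 7 in line 1 had 29.7% with inserted bases, against 22.0 to 25.0%.

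Junctions within 10 kb of the break of a bait that the library should not hold were counted separately, since the comparisons do not use them. In bait 15 libraries 35 junctions of line 1 and 82 of line 2 lay near the bait 12 break, on both strands. Of these, 34 came from experiment B of line 1 (0.345% of its junctions) and 73 from experiment A of line 2 (0.688%), the same 2 experiments that stood apart above. Bait 7 in line 2 had 26 near the bait 12 break, spread over its 3 experiments (7, 4 and 15), and bait 12 in line 2 had 14 near the bait 7 break, over 4 (1, 4, 4 and 5). Every other combination had 0. The part of such junctions in the results was not tested.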

How the results depend on the processing

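Across 79 values and their alternatives, 1594 of 1774 recomputed values kept their direction and their side of the threshold (counts: within 1.5 times), 96 lost the call, 33 gained it, 31 counts or values moved and 20 reversed. Most were refits without 1 experiment or pool, where 1196 stayed, 36 lost the call, 19 gained it, 4 moved and 5 reversed. Under all other alternatives 398 stayed, 60 lost the call, 14 gained it, 27 moved and 15 reversed. The cause of these changes was not tested, except that a single line leaves fewer experiments and line 2 has only 3 for bait 7. Fewer exchanges raise the smallest possible p. A difference can then miss the threshold after adjustment even where no experiments overlap. Calls lost in a single line are therefore no measure of a smaller difference. Differences below are in percentage points unless they are slopes, for the later bait minus the earlier.

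Counting each prey position, strand and bait end once ended the call on the bait chromosome share of bait 12 against 7 (-2.34). Starting the slope at 100 kb ended the calls of bait 15 against 7 (0.0970) and against 12 (0.155). With 10 kb or 20 Mb left out around the break in place of 5 Mb, the share of bait 15 on its chromosome fell below that of bait 12 by the test (-16.6 and -4.80). Inserted bases reversed for bait 12 against 7 without repeated prey (-0.935) and for bait 15 against 7 without simple-sequence prey (1.08). That last setting also brought past the threshold inserted bases (3.93) and 4 or more shared bases (-3.65) of bait 12 against 7 on bait-free chromosomes, and the density ratio of bait 15 against 7 (-1.26).

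In line 1 alone, calls lost include, for bait 12 against 7 the bait chromosome share (-3.72) and long losses (4.92), blunt junctions (-1.84) and the share ahead (7.89); for bait 15 against 7 the telomere side (8.21), blunt junctions (-2.54) and 10 kb to 5 Mb (-0.385); and for bait 15 against 12 the bait chromosome share (-5.20), slope (0.258), telomere side (-8.14), whole ends (0.674), long losses (-17.6), 10 kb to 5 Mb (-1.13), beyond 5 Mb (0.958) and the share ahead (-8.14). Inserted bases (11.1) and 4 or more shared bases (-7.08) of bait 12 against 7 on bait-free chromosomes gained it. Uncalled values that reversed there were the slope (0.0507) and orientation behind the break (1.47) of bait 12 against 7, the share within 10 kb (-0.342) and inserted bases (3.09) of bait 15 against 7, and 4 or more shared bases of bait 15 against 12 on bait-free chromosomes (1.82) and on the bait chromosome (0.115).

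In line 2 alone, calls lost include, for bait 12 against 7 the bait chromosome share (-1.27), whole ends (-4.68), long losses (8.21), blunt junctions (-3.52), 4 or more shared bases on the bait chromosome (-4.76) and the plus strand (9.67); for bait 15 against 7 the telomere side (8.35), whole ends (-3.43), long losses (-15.7), blunt junctions (-3.58), 4 or more shared bases on the bait chromosome (-6.93), the plus strand (8.92) and 10 kb to 5 Mb (-2.71); and for bait 15 against 12 whole ends (1.25) and long losses (-23.9). The slope of bait 12 against 7 gained it (-0.139). Reversed there were 4 or more shared bases (1.35) and inserted bases (-9.73) on bait-free chromosomes for bait 12 against 7, the share beyond 5 Mb (-0.0467) and orientation behind the break (-1.18) for bait 15 against 7, and inserted bases (4.19), orientation beyond 5 Mb (0.693) and the plus strand (-0.753) for bait 15 against 12. Calls numbered 9 for distance and chromosome in line 1, and for bait ends and structure 10 in line 1 and 0 in line 2. The few exchanges in line 2 left little room for any call on bait ends and structure.

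Same-lettered experiments of baits 12 and 15 did not deviate together over 462 bins (r from -0.0722 to 0.0640), so letters were not taken as pairs. The block test of the measures only flips the signs of 8 pairs. Its smallest possible p thus lies well above that of the main test, and a call can be lost at that limit alone. With the letter as a replicate block, whole ends (0.960) and long losses (-20.8) of bait 15 against 12 lost the call (adjusted p = 0.0938 for each, exact permutation), as did 10 kb to 5 Mb (-2.80, adjusted p = 0.0586) and the plus strand on the centromere side (9.01, adjusted p = 0.114, both exact permutation), and the block on bins called 2.

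The 1 Mb bins called for bait 12 against 7 numbered 1 with 500 kb bins, no filter or each position once, 2 with DESeq2, with single experiments or without repeated or simple-sequence prey, and 0 to 4 without 1 pool. For bait 15 against 7 they numbered 1 with total library size, DESeq2, each position once or single experiments, 2 with 500 kb bins, no filter or without repeated prey, 3 without simple-sequence prey, and 0 to 2 without 1 pool. For bait 15 against 12 they numbered 2 with 500 kb bins, DESeq2 or without simple-sequence prey, 3 with single experiments or without repeated prey, 4 with each position once, and 0 to 2 without 1 pool. At a minimum of 5 or 20 junctions, windows numbered 115 and 4. Without 1 experiment, the bait chromosome share of bait 12 against 7 ran from -3.05 to -1.55, and inserted bases from -0.885 to 3.43 for bait 12 against 7 and from -3.19 to 1.53 for bait 15 against 7.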

Other observations

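Prey with the same first 30 bases at 5 or more windows of 1 kb made up 1762 of the 32048 bait-free junctions (5.50%), in 110 sequences, and 62.8% of them were tandem repeats of 1 to 6 bases. Their share was 12.2% ± 5.66 (n = 7) and 6.04% ± 2.81 (n = 3) with bait 7, 9.67% ± 6.89 and 2.40% ± 0.36 with bait 12 and 4.08% ± 2.05 and 5.87% ± 1.73 with bait 15 (n = 4 each), with no called difference between baits.

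The first 30 prey bases were matched to the promoters RefSeq gives for 27025 genes (GRCm38.p6, 32851 windows of 300 bases from 250 bases before to 50 after each start). Matches made up 0.476 to 0.637% of bait-free junctions in the 6 pools. The share of the genome in such windows was not computed, so these values show neither an excess nor a lack. They fell in 156 genes, 17 to 38 in a pool, each hit in 1 pool only, which leaves 0 genes shared between baits or between lines. With so few of the 27025 genes hit in a pool, overlap would be rare without any difference between pools. The absence of shared genes therefore says nothing about baits or lines. Genes whose matched junctions lay on more than 1 chromosome, or 1 kb or more apart, had been left out. In 15 of the 17 genes with 2 or more junctions these lay at 1 position, where they may be copies of 1 junction. The genes with 3 junctions, named after their values were seen, were Irf8, a transcription factor of myeloid and B cells, with bait 12 in line 2, Reps2 with bait 15 in line 2, and Wrap53, which encodes a telomerase protein from a locus that overlaps p53 antisense, with bait 15 in line 1. The 3 junctions of Irf8 and of Reps2 lay at 1 position each and those of Wrap53 at 2. Cdc5l had 4, with bait 12 in line 2, but the deposited tables place these reads on chromosome X, at 36897567 and 36897568, while RefSeq lists Cdc5l on chromosome 17.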
